A study of Homo sapiens with 12 samples.

Results

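The genes described here are developmental transcription factors of 10 families (HOX, PAX, SOX, FOX, LHX, POU, GATA, TBX, IRX and the sine oculis homeobox genes SIX2 to SIX6), measured in HEK293 cells. HEK293 is a line derived from human embryonic kidney and transformed with adenovirus DNA. The genes were chosen by symbol alone: every array row whose symbol carries no hyphen and begins with a family name followed by a member number was taken, and where a gene had several rows the row with the highest 12-array mean was kept. This gave 151 genes, from 158 rows, of the 14884 genes that could be named on the array. The families contribute 27 HOX, 8 PAX, 19 SOX, 44 FOX, 8 LHX, 5 sine oculis, 15 POU, 6 GATA, 13 TBX and 6 IRX genes.

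The cells received either a synthetic miR-1825, here called the mimic (6 arrays), or a commercial negative control siRNA, AllStars (6 arrays), both at 5 nM with the HiPerfect reagent. RNA was extracted 24 h later and hybridised to Affymetrix Human Gene 2.0 ST arrays, and the study set out to find mRNA targets of miR-1825, which its title links to amyotrophic lateral sclerosis. Both groups were transfected and no untransfected cells were on the 12 arrays analysed, so every level below is that of transfected cells of a single, permanently cultured line. The labels do not state that replicates are independent cultures. A p-value therefore measures the spread between these arrays alone, and that spread may be technical.

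These families hold many of the genes that give a cell its place and lineage in the embryo. HOX genes lie in clusters whose gene order follows the order of expression along the body axis, so the set of active HOX genes is read as a positional code, with high paralogue numbers marking the posterior trunk, limbs and urogenital region. In the embryonic kidney, PAX2, PAX8, LHX1, SIX2, GATA3, FOXD1 and HOXD11 act in the nephric duct, the nephron progenitors or the stroma, while SOX2, POU3F2, PAX3, PAX6 and SOX10 are used in neural and neural crest tissue. A microRNA lowers target mRNAs that pair with its seed, the short stretch near its 5′ end, and a synthetic mimic raises the amount of that microRNA in the cell.

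The mature sequence of miR-1825 is shown because it is what the mimic adds to the cells, with the seed (bases 2 to 8) in capitals. A miRNA that shares the first 6 bases of this seed follows it, and seeds that differ at another base were not compared.
hsa-miR-1825: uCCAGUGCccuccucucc
hsa-miR-199a-5p: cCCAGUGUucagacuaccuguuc
Both were taken from RefSeq on GRCh38.p14, where miR-1825 (18 bases) lies at chr20:32237830-32237847 on the plus strand and miR-199a-5p at chr1:172144592-172144614 on the minus strand. Of 2370 mature human miRNA names in that table, 1, miR-1825 itself, has its 7-base seed, and miR-199a-5p is the only other entry that shares the first 6 seed bases. Any miRNA absent from that table was not compared. Target sites in the 151 genes were not analysed here.

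Array values are log2 values, and probes for different genes differ in brightness. A level was therefore placed only against a common bar and not read between genes as an amount. Control means were ordered to choose which genes to name. The bar was the 75th percentile of all 53617 rows, 6.28 in control arrays and 6.30 in mimic arrays. It is not a limit of detection: of 112 genes of hair and skin barrier (KRTAP, LCE and SPRR genes), which serve here as genes little used outside epidermis and hair, 7 lay above it in control arrays, and their median was 3.69. In these bulk samples fewer cells with a transcript and less RNA per cell cannot be told apart.

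The 151 genes lay on both sides of the bar, with a smaller share above it than among all named genes. Above the bar lay 58 of the 151 genes in mimic arrays and 59 (39.1%) in control arrays, against 43.2% of all named genes and 51.4% of named protein-coding genes in control arrays. The gene that differed between the groups was LHX2, which lay at 6.28 in mimic arrays and 6.37 in control arrays, within 0.1 of the bar in both, and its difference of -0.09 ± 0.07 was -0.04 without control replicate 3. Single mimic arrays held 56 to 61 genes above the bar and single control arrays 57 to 61. In control arrays, 16 of the 151 genes lay below the row median of 4.48. By family, the genes above the bar in control arrays were 12 of 27 HOX, 1 of 8 PAX, 5 of 19 SOX, 20 of 44 FOX, 3 of 8 LHX, 3 of 5 sine oculis, 4 of 15 POU, 4 of 6 GATA, 5 of 13 TBX and 2 of 6 IRX genes.

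**Figure D1:**
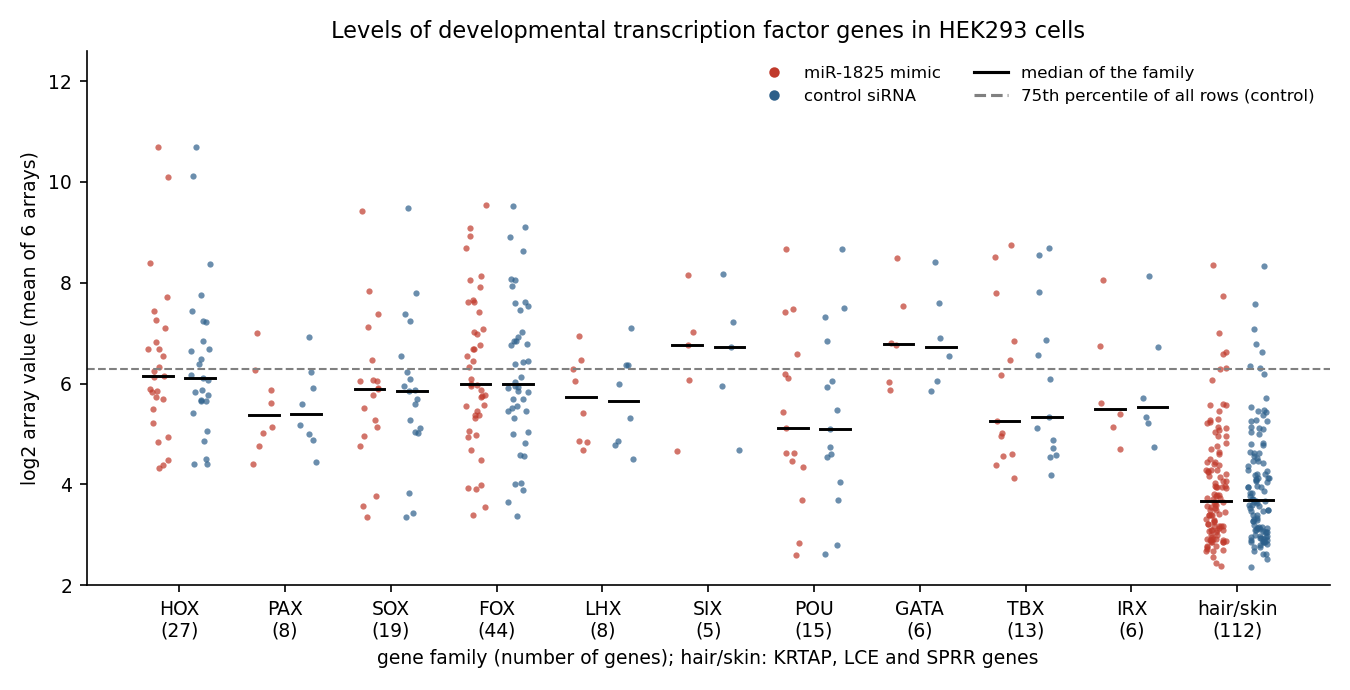
Mean log2 array value of each of the 151 genes in mimic (red, left) and control (blue, right) arrays, by family, with the hair and skin barrier genes at the right; black lines mark family medians and the dashed line the bar of 6.28. Each family spans the bar, and the hair and skin genes have a median of 3.69 in control arrays.

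No gene of the 10 families passed the limma test of mimic against control, a moderated linear model fitted to all rows with Benjamini-Hochberg adjustment at 0.05. The smallest adjusted p among the 151 was 0.285. The same test called 6 of 53617 rows (0.0112%) and 0 of the 14884 named genes, so 0 of 151 is near this background. The log2 differences, mimic minus control, ran from -0.27 to 0.30 with a median of -0.01, against a median of -0.01 over all rows and 0.00 over the named genes. In all, 68 of the 151 genes were higher and 83 were lower in mimic arrays. The median standard error was 0.07, and the 95% interval of the difference lay within ±0.5, which is 1.41-fold, for 147 of 151 genes and within ±0.25, or 1.19-fold, for 104.

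An unadjusted p under 0.05 was found for 6 genes higher and 6 genes lower in mimic arrays, 12 in all (7.95% of 151). Over the named genes the shares were 6.69% higher, 4.19% lower and 10.9% in either direction, so the share among the 151 was no larger than this background. The arrays of the 2 groups did not overlap for 2 of the 151 genes, HOXD8 and SOX13, against 1.75% of named genes.

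**Figure D2:**
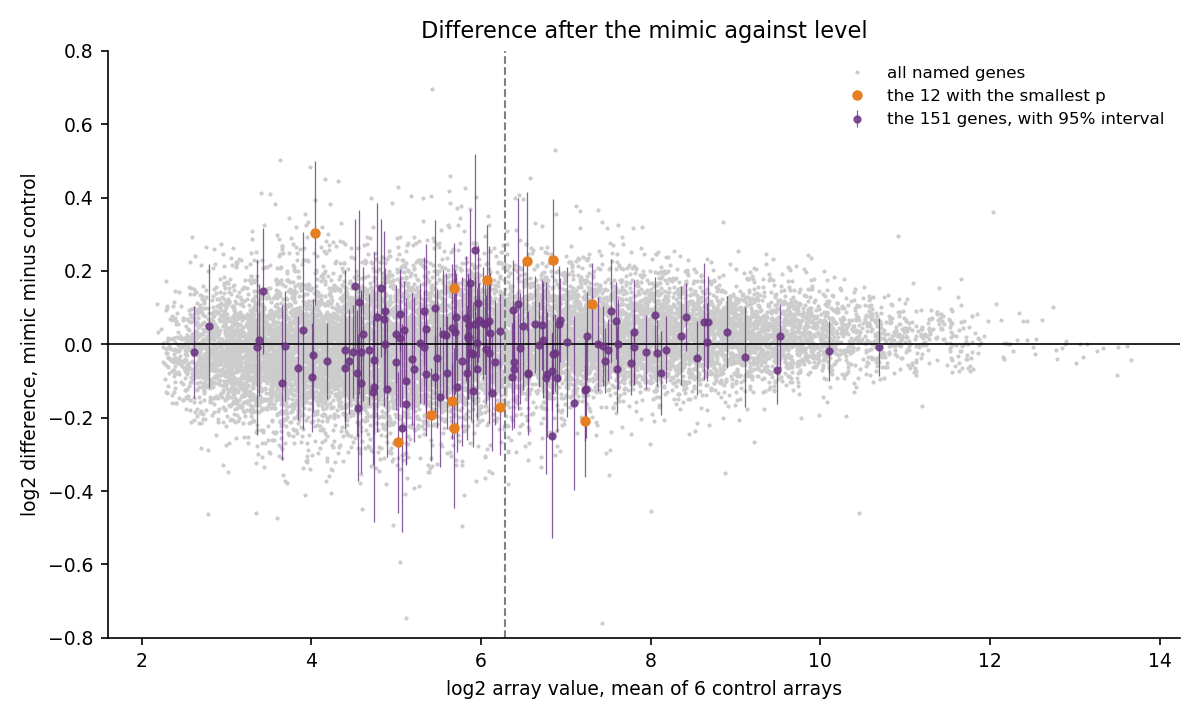
Difference between mimic and control means (vertical axis, log2) against the control mean (horizontal axis, log2 array value) for all named genes (grey) and the 151 genes (purple, with 95% intervals); the dashed line is the bar of 6.28. The points of the 151 genes lie between -0.27 and 0.30 and within the grey cloud, and the 12 genes with the smallest p, marked in orange, lie on both sides of 0.

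HOXD13 and HOXB9 were among the HOX genes above the bar in every array. HOXD13, which patterns the digits and the lower urogenital tract, had 10.65, 10.68 and 10.73 (lowest, median and highest of 6) in mimic arrays, against 10.66, 10.68 and 10.73 in control arrays. HOXB9, a trunk patterning gene of its cluster, had 10.06, 10.08 and 10.15 in mimic arrays, against 10.07, 10.11 and 10.16 in control arrays. The groups overlapped for both genes over nearly their whole range. The difference was -0.01 ± 0.04 (SE, n = 6 each) for HOXD13 and -0.02 ± 0.04 for HOXB9, with 95% intervals of -0.09 to 0.07 and -0.10 to 0.06.

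Further HOX genes above the bar sat in all 3 clusters that were well covered. HOXD10, which acts in hindlimb motor neurons, had 8.33, 8.36 and 8.51 in mimic arrays, against 8.21, 8.33 and 8.55 in control arrays. HOXD11, which with its paralogues is needed for kidney and forearm formation in mice, had 7.68, 7.69 and 7.80 in mimic arrays, against 7.73, 7.75 and 7.85 in control arrays. The groups overlapped in both, with differences of 0.02 ± 0.06 and -0.05 ± 0.04. HOXB2, an anterior gene of the hindbrain, averaged 7.43 ± 0.08 in mimic arrays and 7.44 ± 0.06 in control arrays (SD, n = 6 each), and HOXB7 averaged 7.27 ± 0.10 in mimic and 7.25 ± 0.07 in control arrays. HOXC8 averaged 7.11 ± 0.08 in mimic arrays and 7.23 ± 0.13 in control arrays, with all 6 mimic arrays below the control mean (difference -0.12 ± 0.07, adjusted p = 0.525). HOXC9 averaged 6.82 ± 0.09 in mimic arrays and 6.85 ± 0.04 in control arrays.

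By cluster, the genes above the bar in control arrays were 5 of 10 in HOXB, 4 of 7 in HOXC and 3 of 9 in HOXD, and HOXA2, which averaged 5.86 in mimic arrays and 5.88 in control arrays, lay below it. By paralogue number they were 2 of 9 with numbers 1 to 4, 3 of 6 with numbers 5 to 8 and 7 of 12 with numbers 9 to 13. Over all named genes the share above the bar in control arrays was 43.2%. The position relative to the bar did not follow gene order throughout a cluster. HOXD9 and HOXD12 lay below the bar, at 4.93 and 4.48 in mimic arrays and 4.86 and 4.50 in control arrays, on either side of HOXD10 and HOXD11. In HOXB, HOXB13 averaged 6.69 in mimic arrays and 6.64 in control arrays, while HOXB8 averaged 5.70 in mimic and 5.65 in control arrays. RefSeq lists 39 HOX genes, and 12 of them, most of the HOXA cluster among them, were not analysed here.

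**Figure D3:**
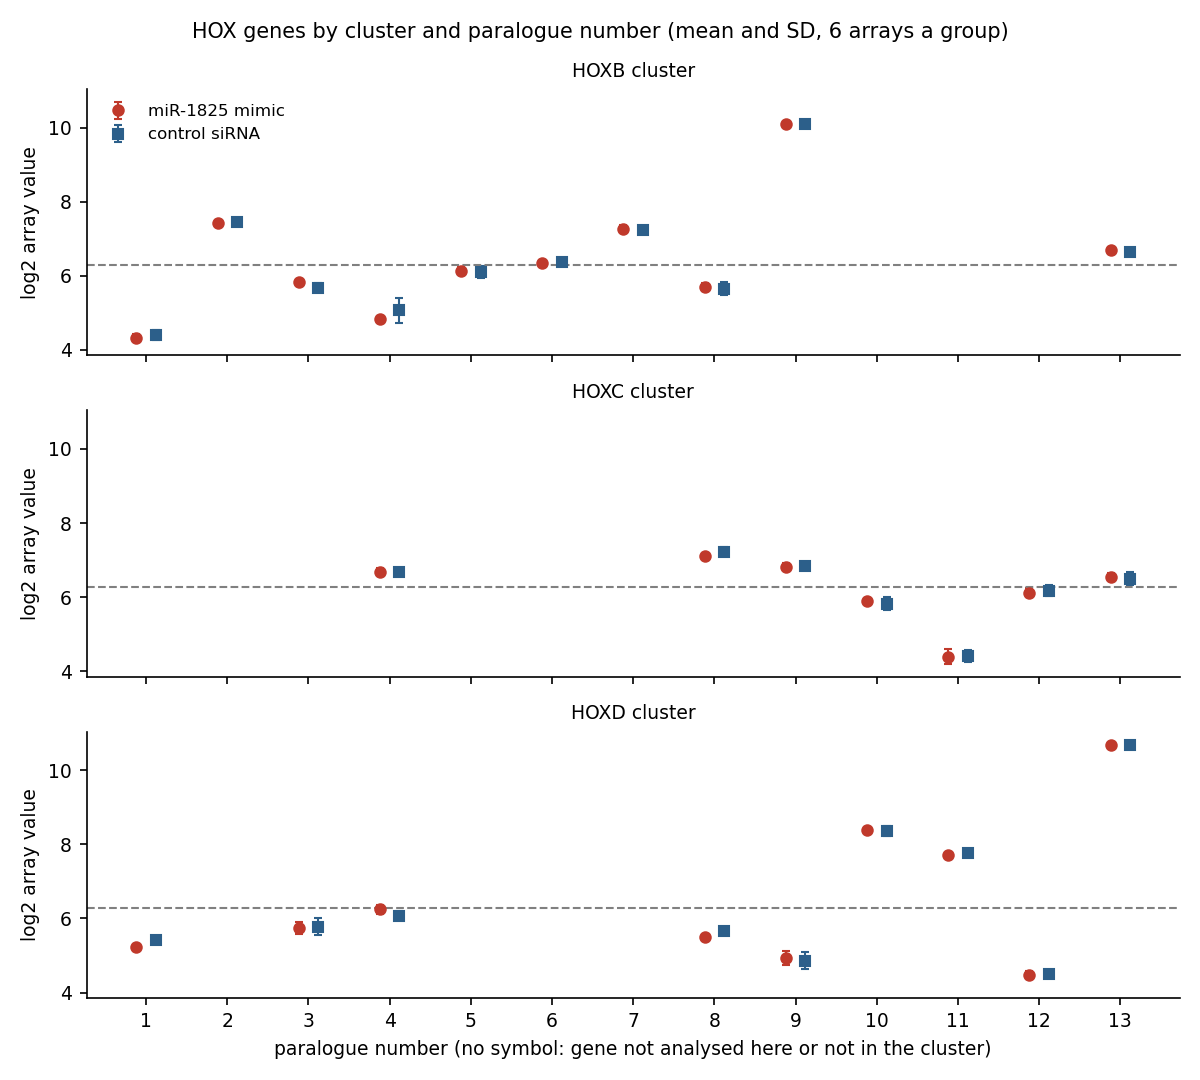
Mean and SD of 6 mimic (red circles, left) and 6 control (blue squares, right) arrays for each HOX gene measured in the HOXB, HOXC and HOXD clusters (vertical axis, log2 array value), along the paralogue number (horizontal axis); the dashed line is the bar of 6.28. HOXB9 and HOXD13 exceed 10 in both groups, and HOXD9 and HOXD12 lie below 5.

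Promoters of a gene above and a gene below the bar are printed as examples, with CG dinucleotides (the motif CG, which reads the same on both strands) in capitals. They were picked after their values were seen, as the genes with the highest and the lowest control mean of the 151. HOXD13 lay above the bar, and POU1F1, a pituitary factor, lay below it and below the row median, at 2.60 in mimic arrays and 2.62 in control arrays. Each runs from 250 bases before to 50 bases after the RefSeq gene start on GRCh38.p14, HOXD13 at chr2:176092471-176092770 on the plus strand and POU1F1 at chr3:87276535-87276834 on the minus strand.
HOXD13: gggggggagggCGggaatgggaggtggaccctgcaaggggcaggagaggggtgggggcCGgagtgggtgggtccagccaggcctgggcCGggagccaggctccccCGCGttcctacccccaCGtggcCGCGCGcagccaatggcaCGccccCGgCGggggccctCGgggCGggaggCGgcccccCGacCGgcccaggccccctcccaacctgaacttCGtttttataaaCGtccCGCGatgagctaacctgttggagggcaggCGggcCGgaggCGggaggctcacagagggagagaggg
POU1F1: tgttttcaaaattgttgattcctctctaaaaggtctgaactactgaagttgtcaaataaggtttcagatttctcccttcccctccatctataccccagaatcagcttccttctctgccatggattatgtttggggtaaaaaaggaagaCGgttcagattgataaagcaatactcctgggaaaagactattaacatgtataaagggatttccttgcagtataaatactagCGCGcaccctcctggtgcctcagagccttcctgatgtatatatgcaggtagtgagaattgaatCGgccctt
The HOXD13 window held 24 CG and 74.0% G or C, and 33.9% of the 35116 promoters in the table held as many CG or more. The POU1F1 window held 4 CG and 41.3% G or C, and 29.6% of promoters held as few or fewer. At least 1 CG stood in 96.0% of all promoters of this length. Promoters of 99 of the 151 genes (65.6%) were in the table, so the families were not compared by promoter.

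The kidney transcription factors were split by the bar. HOXD11, GATA3, FOXD1, SIX2 and LHX1 lay above it and PAX2 and PAX8 below it. GATA3, a factor of the nephric duct, had 7.43, 7.51 and 7.67 in mimic arrays, against 7.49, 7.61 and 7.68 in control arrays. FOXD1, the factor of kidney stroma, had 7.46, 7.62 and 7.82 in mimic arrays, against 7.40, 7.55 and 7.64 in control arrays. SIX2, which keeps nephron progenitors undifferentiated, had 6.57, 6.80 and 6.88 in mimic arrays, against 6.63, 6.74 and 6.77 in control arrays. The groups overlapped in all 3, with differences of -0.07 ± 0.05, 0.09 ± 0.07 and 0.05 ± 0.06. Without mimic replicate 3 the difference was 0.05 for FOXD1 and 0.09 for SIX2, and it was 0.03 for SIX2 without mimic replicate 5 and 0.035 without control replicate 1. LHX1, a nephric duct gene, lay close to the bar, at 6.47 ± 0.10 in mimic arrays and 6.38 ± 0.10 in control arrays. Its difference of 0.09 ± 0.06 was 0.06 without control replicate 6 and 0.06 without mimic replicate 3. FOXD1 has a dimmer row as well, with a difference of -0.03, opposite in sign to the row used.

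PAX2 and PAX8, which are required together for the nephric lineage in mice, lay below the bar in every array. PAX2 had 5.44, 5.63 and 5.78 in mimic arrays, against 5.37, 5.61 and 5.76 in control arrays. PAX8 had 4.30, 4.42 and 4.46 in mimic arrays, against 4.27, 4.46 and 4.68 in control arrays. The groups overlapped in both, and the differences were 0.02 ± 0.08 and -0.05 ± 0.07. HOXA11, of the same kidney program, was not analysed here.

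Kidney genes outside the 10 families were split in the same way, with 4 of the 7 measured (of 14 listed) above the bar. In control arrays 43.2% of all named genes lay above it. WT1, the Wilms tumour factor, averaged 7.56 ± 0.05 in mimic arrays and 7.50 ± 0.09 in control arrays. SALL1, a nephron progenitor factor, averaged 7.89 ± 0.04 in mimic and 7.82 ± 0.12 in control arrays, and EYA1, a partner of SIX2, 7.72 ± 0.04 in mimic and 7.74 ± 0.11 in control arrays. OSR1, an early intermediate mesoderm factor, was the only kidney gene with an unadjusted p under 0.05, at 5.45 ± 0.13 in mimic arrays and 5.65 ± 0.19 in control arrays (difference -0.20 ± 0.09, adjusted p = 0.458). Of 14 adrenal genes, 7 were measured and 0 lay above the bar in either group. DBH, which makes noradrenaline, had a difference of -0.16 ± 0.09 (5.03 ± 0.19 in mimic arrays and 5.18 ± 0.11 in control arrays, adjusted p = 0.539), and PHOX2A, a noradrenergic factor, was at 4.04 ± 0.12 in mimic arrays and 4.14 ± 0.11 in control arrays. HAND2, a sympathoadrenal factor, was at 6.01 ± 0.04 in mimic arrays and 5.97 ± 0.17 in control arrays, and STAR, which brings cholesterol into steroid-making mitochondria, was at 3.67 ± 0.15 in mimic and 3.81 ± 0.21 in control arrays. The arrays held no other cell line, so whether any of these genes sets HEK293 cells apart from other cells could not be tested.

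**Figure D4:**
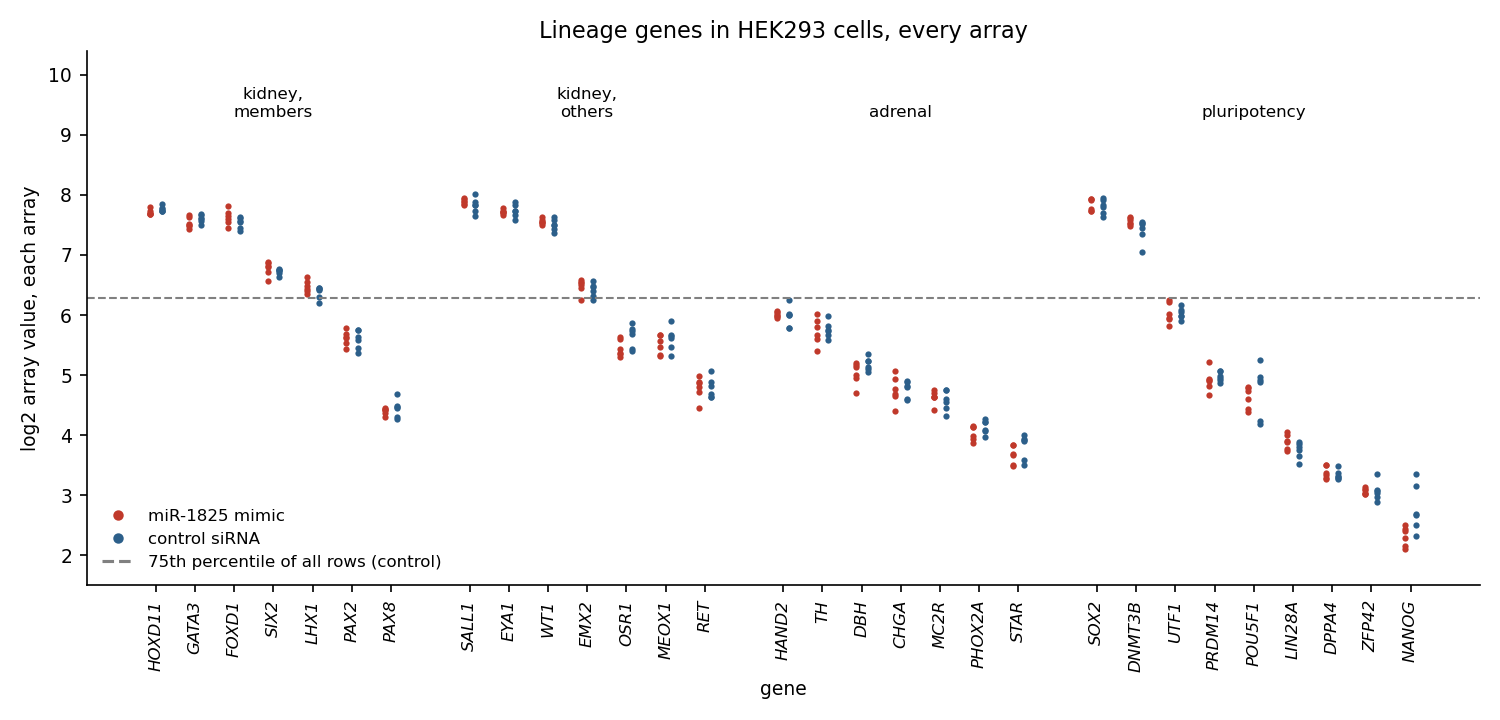
Log2 array value (vertical axis) of kidney, adrenal and pluripotency genes (horizontal axis) on each of the 6 mimic (red, left) and 6 control (blue, right) arrays; the dashed line is the bar of 6.28. Kidney genes lie on both sides of the bar with PAX2 and PAX8 below it, all 7 adrenal genes lie below it, and SOX2 and DNMT3B lie above it among the pluripotency genes.

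Some factors of neural and neural crest tissue also lay above the bar. SOX2, a factor of neural progenitors and pluripotent cells, had 7.73, 7.84 and 7.93 in mimic arrays, against 7.62, 7.81 and 7.95 in control arrays. POU4F1, which marks sensory neurons, had 8.60, 8.68 and 8.74 in mimic arrays, against 8.53, 8.69 and 8.74 in control arrays. In neither gene did the groups separate, and the differences were 0.03 ± 0.07 and 0.01 ± 0.05. POU3F3, a factor of upper-layer cortical neurons and of the kidney, averaged 7.48 ± 0.03 in mimic arrays and 7.50 ± 0.04 in control arrays. PAX3, which specifies neural crest and muscle precursors, was the only PAX gene above the bar, at 7.00 ± 0.07 in mimic arrays and 6.93 ± 0.09 in control arrays. PAX6, the eye and forebrain factor, lay just under it at 6.26 ± 0.04 in mimic and 6.23 ± 0.08 in control arrays. SOX10, which maintains neural crest and glia, lay below it at 6.04 ± 0.15 in mimic arrays and 5.87 ± 0.19 in control arrays, with all 6 mimic arrays above the control mean (difference 0.17 ± 0.09, adjusted p = 0.543). Its difference was 0.10 without control replicate 4.

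Of 12 neuronal genes, 4 were measured and 1, GAP43, a growth cone protein, lay above the bar, at 6.77 in both groups. DCX, a protein of migrating neurons, averaged 3.37 ± 0.17 in mimic arrays and 3.65 ± 0.14 in control arrays (adjusted p = 0.292), and SYP, a synaptic vesicle protein, 5.73 ± 0.13 in mimic and 5.91 ± 0.08 in control arrays (adjusted p = 0.360). Both had an unadjusted p under 0.05 and neither passed the test. That was 50% of the 4 measured, against 10.9% of all named genes, and DCX lay below the row median in both groups. STMN2, a growth cone protein, averaged 3.82 ± 0.14 in mimic arrays and 3.78 ± 0.26 in control arrays. POU5F1, which encodes the pluripotency factor OCT4, averaged 4.63 ± 0.18 in mimic arrays and 4.74 ± 0.43 in control arrays. Its difference of -0.12 ± 0.17 ran from -0.23 without control replicate 1 to -0.02 without control replicate 3, and was also moved by control replicates 4 and 5 and mimic replicate 4. Its near-identical retrocopies POU5F1P3, POU5F1P4 and POU5F1B can share its probes, so its value is uncertain. POU5F1P3 itself lay above the bar, at 6.59 in mimic arrays and 6.84 in control arrays. It is counted among the 4 of 15 POU genes above the bar. Of 8 further pluripotency genes, 7 were measured and 1, the DNA methyltransferase gene DNMT3B, lay above the bar, at 7.56 ± 0.06 in mimic arrays and 7.41 ± 0.19 in control arrays. LIN28A, an RNA-binding protein of early embryos, lay below it at 3.89 ± 0.12 in mimic arrays and 3.75 ± 0.14 in control arrays (adjusted p = 0.517). NANOG, a core pluripotency factor, lay far below the bar at 2.32 ± 0.16 in mimic arrays and 2.78 ± 0.39 in control arrays (difference -0.46 ± 0.16, adjusted p = 0.326).

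In the GATA and TBX families, 4 of 6 and 5 of 13 genes lay above the bar in control arrays, against 43.2% of all named genes. Among them were factors of heart, gut and urogenital mesoderm. Other genes of these families lay below the bar, such as GATA5 (5.87 in mimic and 5.85 in control arrays) and TBX5 (4.96 in mimic and 4.87 in control arrays). GATA6, an endoderm and heart factor, had 8.41, 8.49 and 8.54 in mimic arrays, against 8.33, 8.42 and 8.49 in control arrays. TBX18, a factor of ureter mesenchyme and of the sinus node, had 8.62, 8.73 and 8.85 in mimic arrays, against 8.52, 8.72 and 8.75 in control arrays. The mimic means were higher by 0.07 ± 0.04 (adjusted p = 0.561) and 0.06 ± 0.06 (adjusted p = 0.754), and the groups overlapped in both. The TBX18 difference was 0.03 without control replicate 2 and 0.04 without mimic replicate 1 or 2. TBX20, a heart factor, averaged 8.51 ± 0.04 in mimic arrays and 8.55 ± 0.08 in control arrays. TBX3, which acts in limb, heart and mammary gland, averaged 7.80 ± 0.06 in mimic and 7.81 ± 0.07 in control arrays. GATA2, a factor of blood and of the urogenital system, averaged 6.80 ± 0.16 in mimic arrays and 6.90 ± 0.06 in control arrays, and its difference of -0.09 ± 0.07 was -0.05 without mimic replicate 6. Of the IRX genes, IRX3 averaged 8.05 ± 0.06 in mimic arrays and 8.13 ± 0.09 in control arrays, with a difference of -0.08 ± 0.05 that was -0.05 without control replicate 4, and IRX5 averaged 6.75 ± 0.12 in mimic and 6.74 ± 0.14 in control arrays. Both are homeobox genes used in heart and neural tube patterning.

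Of the SOX and FOX genes, 5 of 19 and 20 of 44 lay above the bar in control arrays, against 43.2% of all named genes. Those well above the bar included factors of proliferating or mesenchymal cells. Others lay below the bar, such as SOX11 (3.77 in mimic and 3.84 in control arrays) and FOXF1 (5.78 in mimic and 5.91 in control arrays). SOX4, a factor of many embryonic progenitors, had 9.35, 9.42 and 9.49 in mimic arrays, against 9.41, 9.50 and 9.56 in control arrays. Its groups overlapped, although all 6 mimic arrays lay below the control mean (difference -0.07 ± 0.04, adjusted p = 0.581). SOX9, a factor of cartilage, testis and branching epithelium, averaged 7.38 ± 0.08 in mimic arrays and 7.38 ± 0.11 in control arrays. FOXM1, a driver of mitotic gene expression, averaged 9.55 ± 0.05 in mimic arrays and 9.52 ± 0.04 in control arrays. FOXF2, a mesenchymal factor of gut and palate, averaged 9.08 ± 0.05 in mimic and 9.11 ± 0.14 in control arrays, and FOXJ3 averaged 8.93 ± 0.05 in mimic and 8.90 ± 0.06 in control arrays. SIX4, a factor of muscle and sensory organs, averaged 8.16 ± 0.05 in mimic arrays and 8.18 ± 0.05 in control arrays. LHX3, which specifies pituitary cells and motor neurons, had a wide spread between arrays, at 6.94 ± 0.20 in mimic arrays and 7.10 ± 0.21 in control arrays. Its difference of -0.16 ± 0.11 (adjusted p = 0.638) was -0.10 without mimic replicate 2.

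Of the 12 genes with an unadjusted p under 0.05, 6 were higher in mimic arrays, and none of their adjusted p-values passed the threshold. POU4F2, a factor of retinal ganglion cells, had 4.13, 4.31 and 4.58 in mimic arrays, against 3.88, 4.03 and 4.22 in control arrays (difference 0.30 ± 0.09, adjusted p = 0.285). FOXP2, a factor of neural circuits tied to speech, had 6.98, 7.08 and 7.18 in mimic arrays, against 6.60, 6.87 and 7.03 in control arrays (difference 0.23 ± 0.08, adjusted p = 0.316). All 6 mimic arrays lay above the control mean in both genes, yet the ranges overlapped, and POU4F2 lay below the row median of 4.48 in both groups.

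GATA4, a factor of heart and gonad, had 6.67, 6.72 and 7.03 in mimic arrays, against 6.21, 6.60 and 6.72 in control arrays (difference 0.23 ± 0.09, adjusted p = 0.388). HOXB3, a hindbrain gene, had 5.80, 5.84 and 5.87 in mimic arrays, against 5.57, 5.63 and 5.86 in control arrays (difference 0.15 ± 0.06, adjusted p = 0.362). In both the highest control arrays reached into the mimic range. HOXD4, also of the hindbrain, averaged 6.25 ± 0.11 in mimic arrays and 6.07 ± 0.12 in control arrays (adjusted p = 0.402), and its dimmer second row differed by 0.18 as well. POU3F2, a neural factor, averaged 7.42 ± 0.04 in mimic arrays and 7.31 ± 0.10 in control arrays (adjusted p = 0.463).

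The other 6 were lower in mimic arrays. HOXD8 had 5.46, 5.51 and 5.53 in mimic arrays, against 5.53, 5.65 and 5.78 in control arrays (difference -0.16 ± 0.05, adjusted p = 0.288). SOX13, a factor of T cells and cartilage, had 5.95, 6.06 and 6.11 in mimic arrays, against 6.11, 6.18 and 6.43 in control arrays (difference -0.17 ± 0.06, adjusted p = 0.352). These were the 2 genes whose groups did not overlap, and in each the highest mimic array and the lowest control array rounded to the same value.

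HOXD1, an anterior gene of its cluster, averaged 5.22 ± 0.09 in mimic arrays and 5.41 ± 0.10 in control arrays (difference -0.19 ± 0.06, adjusted p = 0.291). SIX3, a forebrain and eye factor, averaged 7.02 ± 0.11 in mimic arrays and 7.23 ± 0.13 in control arrays (difference -0.21 ± 0.07, adjusted p = 0.326). All 6 mimic arrays lay below the control mean in each gene, with some overlap between the groups. SOX15, a factor of muscle and placenta in mice, averaged 4.76 ± 0.19 in mimic arrays and 5.02 ± 0.13 in control arrays (difference -0.27 ± 0.09, adjusted p = 0.319). FOXJ1, which switches on motile cilia genes, averaged 5.46 ± 0.15 in mimic arrays and 5.69 ± 0.22 in control arrays (difference -0.23 ± 0.10, adjusted p = 0.449). Of these 12 genes, FOXP2, SIX3, GATA4 and POU3F2 lay above the bar.

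**Figure D5:**
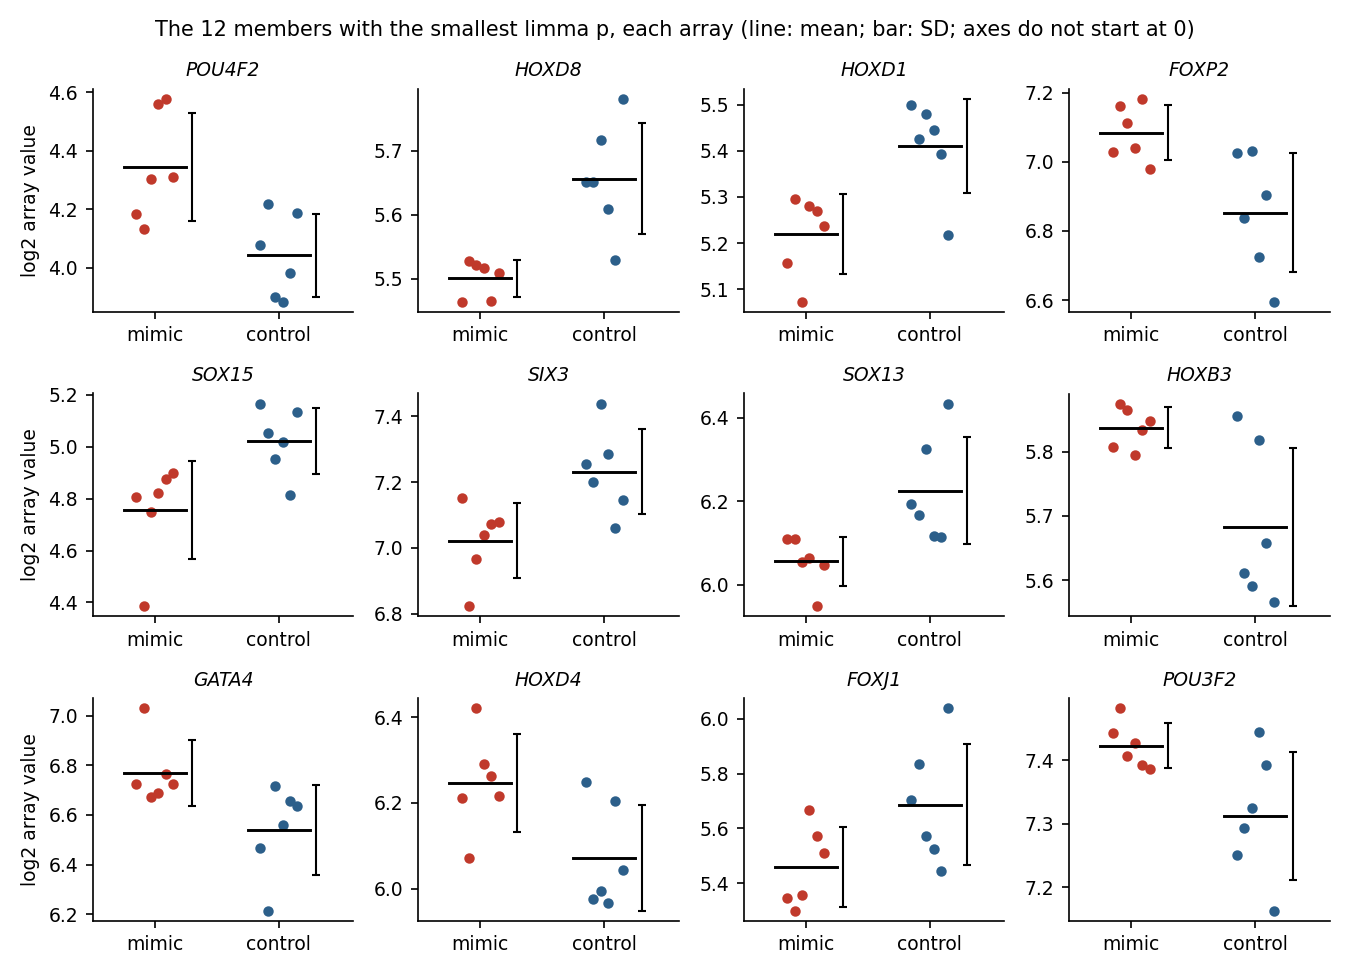
Log2 array value (vertical axes, which do not start at 0) of the 12 genes with the smallest limma p, on each of the 6 mimic (red, left) and 6 control (blue, right) arrays, with the mean as a line and the SD as a bar. The groups do not overlap for HOXD8 and SOX13 and overlap for the other 10, and the smallest adjusted p is 0.285.

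The family medians of the difference were small and had no common direction. They were -0.02 for HOX, 0.00 for PAX, -0.02 for SOX, 0.00 for FOX, 0.07 for LHX, -0.01 for sine oculis, 0.01 for POU, 0.00 for GATA, -0.04 for TBX and -0.06 for IRX. The spread between arrays was wider in dim genes: the median SD of the genes above the bar was 0.08 in mimic arrays and 0.09 in control arrays, and of the others 0.12 in mimic and 0.14 in control arrays. The 4 genes whose interval passed ±0.5 were POU5F1P3, POU5F1P4, HOXB4 and POU4F2. HOXB4 averaged 4.84 ± 0.09 in mimic arrays and 5.06 ± 0.34 in control arrays, and POU5F1P3 and POU5F1P4 differed by -0.25 and 0.26. At the edge of the bar, HOXB6, LHX1 and LHX2 lay just above it in control arrays. HOXB6 and LHX1 were at 6.34 and 6.47 in mimic arrays and 6.39 and 6.38 in control arrays, and LHX2 was at 6.28 in mimic arrays, below their bar, and 6.37 in control arrays. PAX6, SOX13 and HOXC12 lay just below it in control arrays, at 6.26, 6.06 and 6.12 in mimic arrays and 6.23, 6.23 and 6.17 in control arrays.

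Some symbols need care. FOXD4, FOXD4L1, FOXD4L5 and FOXD4L6 are near-identical copies whose transcripts can bind each other's probes, and FOXL2NB carries a FOX prefix without being a forkhead gene. Of the 7 genes with a second row, FOXO3 had rows of opposite sign, at 0.11 for the row used and -0.11 for the other, while the rows of SOX12 (-0.12 and -0.15) and LHX2 (-0.09 and -0.13) had the same sign.

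The proteins that act with HOX factors were described from fixed lists, and none passed the test. Of 12 HOX cofactors and upstream CDX genes, 10 were measured and 4 lay above the bar in both groups: PBX2, MEIS2, PKNOX1 and CDX2. CDX1, an upstream activator of HOX genes, was the only one with an unadjusted p under 0.05, at 5.83 ± 0.15 in mimic arrays and 6.00 ± 0.12 in control arrays (adjusted p = 0.458). CDX4 averaged 3.34 ± 0.17 in mimic arrays and 3.46 ± 0.22 in control arrays, and PBX3 averaged 5.84 ± 0.10 in mimic arrays and 5.77 ± 0.15 in control arrays. The median difference of the 10 was 0.03. Of 24 Polycomb, Trithorax and demethylase genes, which keep HOX clusters silent or active, 16 were measured and 15 lay above the bar, with a median difference of 0.03.

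Among these chromatin genes, 2 were higher and 1 was lower at an unadjusted p under 0.05, and none passed the test. That was 18.75% of the 16 measured, against 10.9% of all named genes. WDR5, a core subunit of histone H3 methyltransferase complexes, averaged 8.28 ± 0.10 in mimic arrays and 8.11 ± 0.05 in control arrays (difference 0.17 ± 0.05, adjusted p = 0.292). PHC3, a Polycomb repressive complex subunit, averaged 7.83 ± 0.12 in mimic and 7.66 ± 0.04 in control arrays (difference 0.17 ± 0.06, adjusted p = 0.302). PCGF2, another Polycomb subunit, averaged 8.35 ± 0.05 in mimic and 8.45 ± 0.04 in control arrays (difference -0.10 ± 0.04, adjusted p = 0.403). In these 3 genes the mimic and control arrays did not overlap, as in 1.75% of named genes. Of 17 partners of sine oculis, LHX, GATA and other family members, 11 were measured, 6 lay above the bar and 0 had an unadjusted p under 0.05. The partner with the smallest p was DACH1, a corepressor that works with EYA proteins, at 9.01 ± 0.04 in mimic arrays and 9.10 ± 0.08 in control arrays (adjusted p = 0.491). LDB1, the adaptor of LIM homeodomain factors, averaged 9.50 ± 0.06 in mimic arrays and 9.43 ± 0.08 in control arrays, and DACH2 averaged 4.34 ± 0.16 in mimic arrays and 4.24 ± 0.13 in control arrays.

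No marker of another cell type passed the test. Fibroblast markers (3 of 9 measured) and leukocyte markers (2 of 8 measured) all lay below the bar, and 0 had an unadjusted p under 0.05. The fibroblast markers averaged 2.68 to 5.74 in mimic arrays and 2.65 to 5.68 in control arrays, and the leukocyte markers 3.02 to 3.84 in mimic arrays and 3.03 to 3.89 in control arrays. Of 11 markers of epithelial cancer lines, 10 were measured, with 2 above the bar in mimic arrays and 3 in control arrays. EPCAM and KRT18 lay above it in both groups and KRT8 in control arrays alone. CLDN7 and KRT18 had an unadjusted p under 0.05, with differences of -0.22 ± 0.08 and -0.10 ± 0.04, which did not pass the threshold. That was 20% of the 10 measured, against 10.9% of all named genes. Of the 10, 9 were lower and 1 was higher in mimic arrays. The arrays themselves were alike, with array medians of 4.44 to 4.51 and pairwise correlations of 0.988 to 0.994 over all rows.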

How the data were processed

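The authors' deposited table holds log2 values for 53617 rows on 12 arrays. The submitters' processing notes name Affymetrix Expression Console as the tool. Its version, background correction and normalization were not given in the sources used here. Values run from 1.62 to 14.4 and were used as deposited, and the number of arrays limits the precision. Rows were named through GEO's platform annotation, which gives 16098 rows a gene symbol.

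Mimic minus control was tested in R 4.3.3 with the limma package, version 3.58.1 (functions lmFit and eBayes, two-sided), over all rows, with Benjamini-Hochberg adjustment, and the 151 genes were read out of that fit. The members and the lists were chosen with earlier results of these data known.

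A planned bar from olfactory receptor genes could not be set, because 1 such gene is named, so the 75th percentile of all rows, listed beforehand as another choice, was used. A bar from hair and skin genes was chosen after seeing the data. Genes named in the text are, in each family, up to 3 members (HOX 8) above the bar with the highest control mean, the 12 with the smallest p, fixed kidney, pluripotency, neural and gonadal factors, 3 genes on each side of the bar, and the 3 smallest p-values of each lineage, pluripotency, neuronal and pathway list. Other named genes (such as HAND2, EYA1, HOXB4, HOXD9, POU1F1, GAP43 and the gene copies) were named after their values were seen.

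No label says that a replicate number marks a shared culture or day, so numbers were not taken as pairs. Same-numbered arrays of the 2 groups did not deviate together (correlations of -0.08 to 0.04), which cannot show that they shared neither. Alternatives were another scaling, a trend and robust prior, a replicate block, filters on dim rows, another choice of rows, another bar and leaving out each array.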

Additional observations from a re-analysis of the deposited data

Results flagged for a closer look

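In 6 of 100 groups of 6 arrays (50 named genes in each treatment), the highest or lowest array stood far from the others by Dixon's criterion, and chance gives about 1 in 20. In mimic replicate 2, 3 genes stood apart. GATA4 was at 7.03, where the other 5 mimic arrays ran from 6.67 to 6.76, and its difference was 0.17 without that array and 0.23 with it. SOX15 was at 4.39, against 4.75 to 4.90, and its difference was -0.19 without the array and -0.27 with it. SOX9 was at 7.24, against 7.38 to 7.45. FOXJ3 was at 8.83 in mimic replicate 5, and the rest of its group ran from 8.94 to 8.97. PAX6 was at 6.35 in mimic replicate 3, against 6.22 to 6.26. HOXD11 was at 7.85 in control replicate 3, against 7.73 to 7.77 in the other control arrays. Results with each single array left out, these among them, are given in the next section. Why these values stood apart was not tested.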

How the results depend on the processing

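None of the 151 genes passed the threshold under any alternative that was run, and the smallest adjusted p was 0.0989 among the brightest 25% of rows, where 59 of them were tested. With 1 array left out, 0 of the 151 were called each time and 0 to 6 rows of the whole array. That row count was 2 without control replicate 4 or mimic replicate 3, and 0 without control replicate 1, 2 or 3 or mimic replicate 1, 2, 4, 5 or 6. Rows called over the whole array were 39 with a trend and robust prior, 13 among rows at or above the median, 242 among the brightest 25% of rows, and 0 with 1 row per named gene. With the replicate number as a block (replicate block), 0 rows and 0 of the 151 genes were called and 12 had an unadjusted p under 0.05. Same-numbered arrays correlated between -0.08 and 0.04 in their deviations, and the numbers were not taken as pairs. The labels do not say whether such arrays shared a culture or day, and these correlations cannot show that they did not. Genes with an unadjusted p under 0.05 were 5 among the brightest 25%, where fewer genes were tested, 12 to 14 under the other settings and 11 to 17 with 1 array left out. The median difference was 0.007 with array medians subtracted and -0.018 after quantile normalization, and -0.015 to -0.005 with 1 array left out. With the median of all rows as the bar, 135 of the 151 genes and 25 of the HOX genes lay above it. The counts were 59 and 12 with the hair and skin bar, with either scaling and with each control array left out. They were 57 and 12 with the mean over all rows of a gene, and 58 and 12 with mimic arrays in place of control arrays. The bars from olfactory receptor genes were not run.

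Of 50 named genes, 36 kept their sign under every alternative that was run. The sign turned with array medians subtracted for HOXD13 (0.0078), HOXB2 (0.0105) and TBX3 (0.0089), and after quantile normalization for HOXD10 (-0.0055), HOXB7 (-0.0031), SOX9 (-0.0284), FOXM1 (-0.0018), POU4F1 (-0.0191) and IRX5 (-0.0085). It turned in 12 genes when 1 array was left out, with log2 differences of HOXD10 -0.0068 to 0.0597, HOXB2 -0.0281 to 0.0223, HOXB7 -0.0024 to 0.0538, SOX2 -0.0029 to 0.0612, SOX9 -0.0404 to 0.0298, FOXF2 -0.0787 to 0.0023, SIX4 -0.0291 to 0.0013, POU4F1 -0.0216 to 0.0207, TBX3 -0.0203 to 0.0138, IRX5 -0.0215 to 0.0554, PAX2 -0.0210 to 0.0593 and PAX8 -0.0813 to 0.0008. In 20 further genes, leaving out 1 array moved the difference by over 1.5 times without turning its sign, and 0 of the 20 had an unadjusted p under 0.05. Of these, 10 had differences under 0.05 in size, with ranges of FOXJ3 0.0173 to 0.0556, FOXM1 0.0085 to 0.0399, HOXB6 -0.0729 to -0.0143, HOXB9 -0.0314 to -0.0089, HOXC9 -0.0580 to -0.0043, HOXC12 -0.0895 to -0.0054, HOXD13 -0.0171 to -0.0002, PAX6 0.0082 to 0.0534, POU3F3 -0.0265 to -0.0030 and TBX20 -0.0647 to -0.0206. None of these differences had passed the test, and the cause was not tested. Adjusted p-values in the other fits over all 151 genes were at least 0.186. Probe background was not measured here, which limits what can be said of genes below the bar.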
